A study of Mus musculus with 2 samples.

Results

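Broad H3K4me3 regions are described here as the stretches of 5 kb or more that neighbouring peaks of 1 library form at the ends of coding genes in mouse neural progenitor cells. Neighbouring peaks with a gap of at most 1 kb were merged, and a merged (joined) region was kept when it measured 5000 bp or more, lay on chromosomes 1 to 19 and touched the window of 1 kb either side of an end of a RefSeq coding gene. These rules kept 369 of the 18268 joined regions in the deposited peak list and 369 of the 10570 that touch a coding gene end on chromosomes 1 to 19, or 3.49%. Since peak length chose the regions, and tags and fold enrichment come from the same peaks, all of these values are given as a description with no test.

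The study mapped H3K4me3 by chromatin immunoprecipitation and sequencing in neural progenitor cells from adult mice. It has 1 H3K4me3 library, which the labels mark "con" and the file header names after EGF, and 1 input library of sonicated chromatin. Cells of both libraries grew in N2 medium with EGF and bFGF and had no other treatment. The labels give no strain, age, sex, brain region, number of animals or antibody, do not say whether cultures were pooled, and do not explain "con". The header of the file gives 18156769 filtered tags for H3K4me3 and 17831241 for the input. There is no replicate, so the 95% intervals below (exact Poisson for tags per kb) cover counting error only. The libraries were amplified by PCR without molecular identifiers, so tags need not be independent molecules.

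H3K4me3 is trimethylated lysine 4 of histone H3, written by the SET1 and MLL methyltransferase complexes at CpG-rich starts of genes that are active or held ready for activation. At most genes the mark forms a short peak just behind the start site. Longer stretches are known in many cell types at genes of cell identity and at genes for regulators of transcription and growth. Adult neural progenitors divide in culture with EGF and bFGF, express Sox2, Nes, Vim and Hes1, and can give rise to neurons and glia.

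The 250 bases before the annotated start of the leading gene are shown for the longest regions and for the regions with the most and the fewest tags per kb, to set the sequence at the start beside the length and strength of the mark. The leading gene of a region is the coding gene whose annotated start, or nearer end where no start is listed, lies closest to the summit of the peak with most tags. Sequences are from RefSeq (GRCm38.p6), run 5′ to 3′ on the strand of the gene up to its start, and have each CG in capitals, the dinucleotide at which mammalian DNA is methylated and which is dense in CpG islands.
Nr2f2, chr7:70366747-70366996, minus strand: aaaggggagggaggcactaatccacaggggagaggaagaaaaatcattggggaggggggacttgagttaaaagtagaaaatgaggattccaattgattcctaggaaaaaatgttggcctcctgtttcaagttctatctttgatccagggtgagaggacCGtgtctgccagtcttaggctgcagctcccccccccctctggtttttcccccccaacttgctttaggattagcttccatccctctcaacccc
Pou3f2, chr4:22488367-22488616, minus strand: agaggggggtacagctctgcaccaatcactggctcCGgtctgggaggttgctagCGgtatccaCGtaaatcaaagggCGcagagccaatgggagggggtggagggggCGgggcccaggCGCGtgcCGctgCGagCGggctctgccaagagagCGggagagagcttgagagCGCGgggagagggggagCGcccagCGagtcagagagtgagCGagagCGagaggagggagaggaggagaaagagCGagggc
Qk, chr17:10319362-10319611, minus strand: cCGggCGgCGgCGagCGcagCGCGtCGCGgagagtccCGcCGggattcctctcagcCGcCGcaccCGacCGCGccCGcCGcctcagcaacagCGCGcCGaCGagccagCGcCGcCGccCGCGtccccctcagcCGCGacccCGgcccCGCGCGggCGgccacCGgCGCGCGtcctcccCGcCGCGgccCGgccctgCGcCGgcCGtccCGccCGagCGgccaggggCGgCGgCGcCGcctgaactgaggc
Tnrc18, chr5:142817663-142817912, minus strand: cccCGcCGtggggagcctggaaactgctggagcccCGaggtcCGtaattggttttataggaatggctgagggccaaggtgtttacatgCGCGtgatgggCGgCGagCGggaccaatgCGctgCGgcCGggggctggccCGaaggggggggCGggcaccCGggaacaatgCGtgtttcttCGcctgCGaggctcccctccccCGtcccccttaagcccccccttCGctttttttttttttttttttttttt
1600014C23Rik, chr17:45733845-45734094, minus strand: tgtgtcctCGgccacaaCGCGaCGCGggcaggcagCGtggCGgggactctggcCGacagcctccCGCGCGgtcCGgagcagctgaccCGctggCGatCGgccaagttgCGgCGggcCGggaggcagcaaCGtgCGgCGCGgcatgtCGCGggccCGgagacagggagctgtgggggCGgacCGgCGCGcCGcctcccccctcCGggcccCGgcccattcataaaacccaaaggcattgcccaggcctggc
By length, the regions at Nr2f2, Nfib and Pou3f2 lead, and the Qk region is the next with a listed start. By tags per kb, Phlda1 comes first and Tnrc18 has the most among those with a listed start, while 1600014C23Rik has the fewest. The number of CG in these windows ranged from 1 at Nr2f2 (50% GC) to 52 at Qk (84.8% GC), with 18 at Pou3f2, 20 at Tnrc18 and 32 at 1600014C23Rik. The start printed for Nr2f2 lies 603 bp from one edge of its region, and the summit lies 7919 bp downstream of it. The window at 1600014C23Rik, where the region had the fewest tags per kb, held more CG than that at Nr2f2, where the region was longest.

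Most broad regions were only a little longer than the bound. The median length was 6031 bp with quartiles of 5453 and 7359 bp, 181 regions measured 5 to 6 kb, 154 measured 6 to 10 kb and 34 reached 10 kb. Just inside the bound lay Soga3 at 5004 bp, Phf12 at 5002 bp and Fubp1 at 5001 bp. Just outside lay Klf3 at 4997 bp, Tuba1c at 4994 bp and Dbp at 4983 bp, with 167, 171 and 173 tags per kb against 113, 217 and 171 for the 3 inside. Tags per kb on either side of the bound overlapped.

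The broad regions held 387798 tags, 8.21% (95% Clopper-Pearson interval 8.19 to 8.24) of the 4721118 tags in peaks on chromosomes 1 to 19. Of the tags and of the joined length at coding gene ends they held 10.1% and 10.02%. Tags per region ran from 284 to 3852 with a median of 981. Tags per kb ran from 56.5 to 246 with a median of 154 (quartiles 129 and 180), beside 148 (116 and 172) in the 10201 regions under 5 kb. The strongest peak of a broad region had a median fold enrichment over the input of 45.6, beside 38.5 in the shorter regions. Fold is the authors' own value per peak. By length, this median was 9.4 under 1000 bp and 32.55 at 1000 to 2000 bp, but 44.24 at 3000 to 4000 bp. From 4000 to 5000 bp it was 45.14, beside 44.84 from 5000 to 6000 bp, so the higher fold was not particular to broad regions. A fold of 30 or more was reached by 355 of the 369 regions (96.2%), beside 74.1% of all 10570. These shares were not matched for length either. Tags per kb of broad and shorter regions overlapped over most of their range.

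Across bins of length, tags per kb climbed and then eased. The median was 45.2 tags per kb under 1 kb, 128 at 1 to 2 kb, 161 at 2 to 3 kb, 171 at 3 to 4 kb and 166 at 4 to 5 kb. Among the broad regions it was 161 at 5 to 6 kb, 154 at 6 to 8 kb, 147 at 8 to 12 kb and 142 in the 16 regions of 12 kb or more. Part of the broad set is made by joining: 206 regions were a single peak, 127 joined 2 peaks and 36 joined 3 or more. Single-peak regions had a median of 174 tags per kb and joined regions 130, or 138 per kb of peak when the gaps are left out. The share that was a single peak was 63.0% at 5 to 6 kb, 52.6% at 6 to 8 kb and 53.6% at 8 to 12 kb. It was 6.25% in the 16 regions of 12 kb or more, so joining was most frequent in the longest bin.

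**Figure D1:**
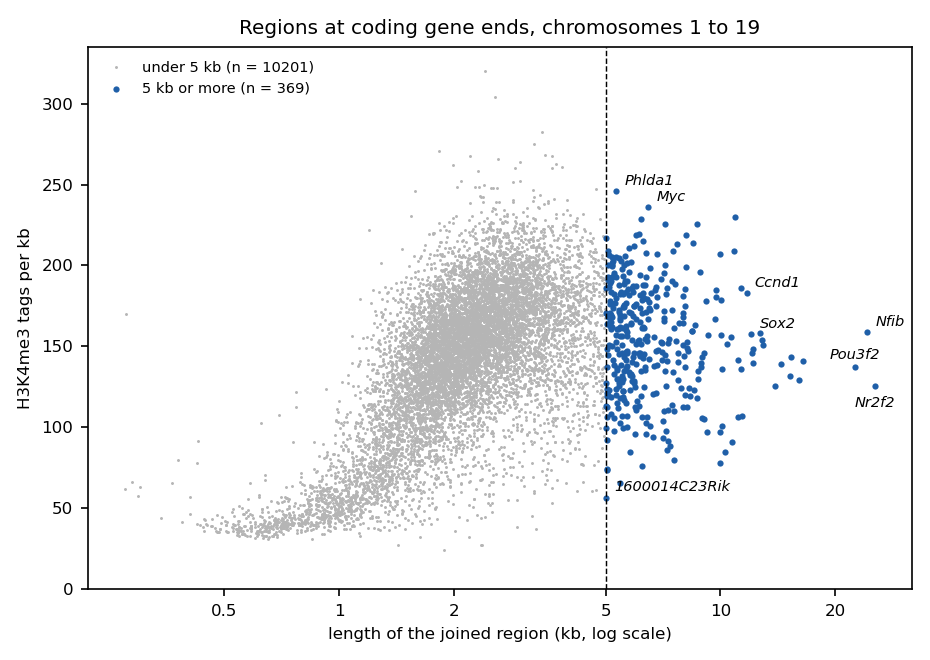
Length of each joined region at a coding gene end (kb, log scale) against its H3K4me3 tags per kb; grey points are the 10201 regions under 5 kb, blue points the 369 broad regions, and the dashed line is the bound of 5 kb. Broad regions lie between 56.5 and 246 tags per kb, within the range of the shorter regions, and Nr2f2, Nfib and Pou3f2 stand farthest to the right.

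Many of the longest regions lay at regulators of transcription. Of the 20 longest, 9 led with a gene for a DNA-binding transcription factor, as did 14 of the 34 of 10 kb or more and 77 of all 369 (20.9%). Those 77 had a median length of 6.54 kb and 161 tags per kb, beside 5.96 kb and 151 tags per kb in the other 292. The share of transcription factor genes among the shorter regions was not counted, so no excess in broad regions can be read from these counts. The 18 classes below were assigned by hand from the leading gene after the list was made, so their sizes are a description.

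**Figure D2:**
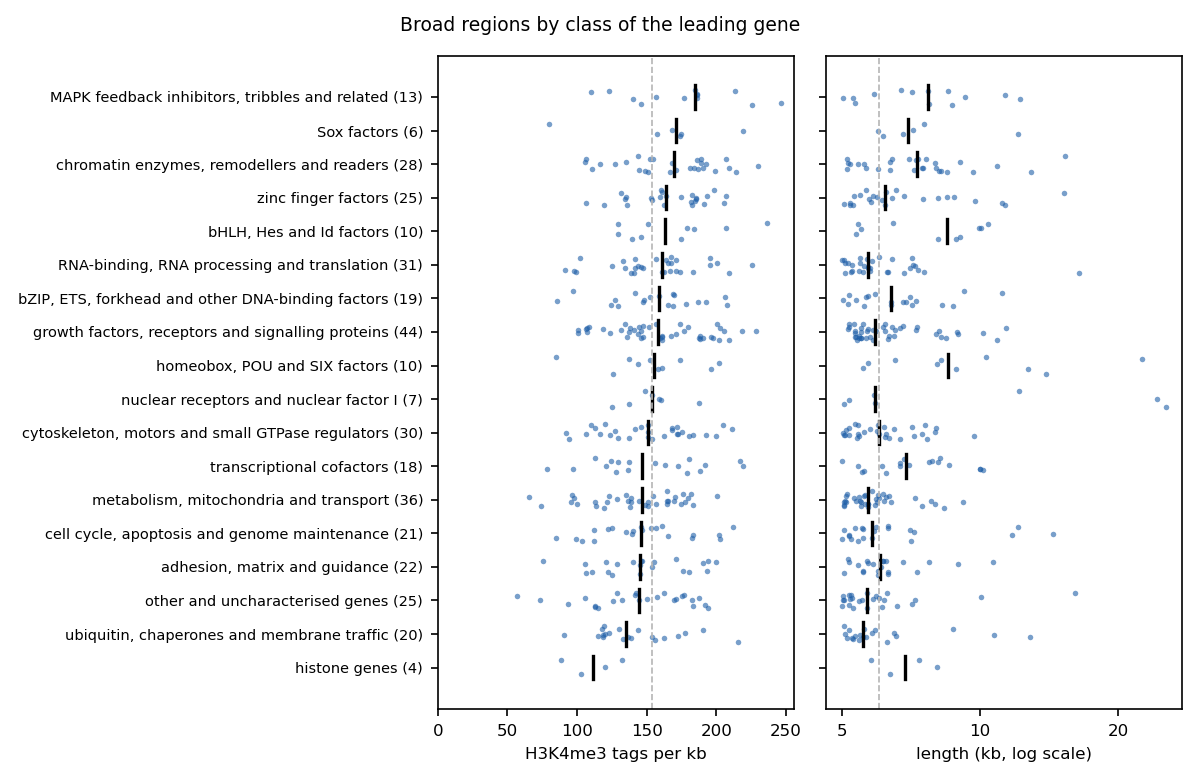
Tags per kb (left) and length in kb on a log scale (right) of the 369 broad regions, by class of the leading gene with the number of regions in parentheses; points are regions, black bars class medians and dashed lines the medians over all broad regions. Class medians of tags per kb run from 111 at histone genes to 185 at MAPK feedback inhibitors, tribbles and related genes. The longest regions lie at nuclear receptors, nuclear factor I and POU factors.

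Nuclear receptors and nuclear factor I led 7 regions with a median of 154 tags per kb, among them the longest of all. Nr2f2 and Nr2f1 (COUP-TFII and COUP-TFI) are orphan nuclear receptors that pattern the forebrain. At Nr2f2 (chr7:70341961-70367349), 3182 tags lay over 25.4 kb, or 125 tags per kb (95% interval 121 to 129.8), and the strongest peak had a fold of 39.1. Its 2 peaks were separated by under 1 kb, and the longer one ran for 21410 bp. Nfib, a nuclear factor I gene, drives glial differentiation. Nfib (chr4:82494026-82518309) lay under 24.3 kb with 3852 tags, 159 tags per kb (95% interval 154 to 164) and a top fold of 48.5. It held the most tags of any broad region. The Nr2f1 region (chr13:78193300-78205475) spanned 12.2 kb and held 1807 tags, or 148 tags per kb (95% interval 142 to 155), with a fold of 39.8 at its strongest peak. Shorter regions lay at the genes for tailless, which keeps adult neural stem cells dividing, an immediate early receptor, a retinoid-related orphan receptor and a thyroid hormone receptor. These were Nr2e1, Nr4a3, Rorb and Thra, from 137 tags per kb at Thra to 188 at Nr4a3.

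POU, sine oculis-type and other homeobox genes led 10 regions, with the highest class median of length, 8.53 kb, and 156 tags per kb. Pou3f2 and Pou3f3 (Brn2 and Brn1) are intronless genes for POU factors of neural progenitors and upper-layer neurons. At Pou3f2 (chr4:22476867-22499420), 3093 tags lay over 22.6 kb, or 137 tags per kb (95% interval 132 to 142), and the strongest peak had a fold of 33.9. It reached almost equally far on both sides of the start, 11054 bp upstream and 11499 bp downstream. Pou3f3 (chr1:42690232-42704159) lay under 13.9 kb with 1748 tags, 126 tags per kb (95% interval 119.7 to 132) and a top fold of 27.6. Their relative Pou3f1 (Oct6), a POU factor of glia and neurons, lay under a single peak of 5.55 kb with 161 tags per kb. Six3, a repressor needed for the anterior forebrain, had a single peak of 12.7 kb at 158 tags per kb. TALE factors, which act as partners of other homeodomain proteins, were Tgif1, Meis2, Irx5 and Meis1, from 144 tags per kb at Irx5 to 196 at Tgif1. The mesenchymal homeobox gene Prrx1 had 202 tags per kb.

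Sox genes led 6 regions with a median of 6.97 kb and 171 tags per kb. Sox2 keeps neural stem cells undifferentiated. The Sox2 region (chr3:34645910-34657979) spanned 12.1 kb and held 1900 tags, or 157 tags per kb (95% interval 150.4 to 165), with a fold of 49.2 at its strongest peak. Sox21, a repressor that opposes Sox2 targets, stood apart by its few tags. At Sox21 (chr14:118230471-118238008), 603 tags lay over 7.54 kb, or 79.99 tags per kb (95% interval 73.7 to 86.6), and the strongest peak had a fold of 23.9. The SoxE genes, which act in gliogenesis, were Sox9 and Sox8, at 174 and 168 tags per kb, and the SoxC genes, which act in neuronal differentiation, were Sox4 and Sox11, at 219 and 175 tags per kb. Of the 6 genes, 4 (Sox2, Sox21, Sox8 and Sox4) lay within their region from end to end.

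Basic helix-loop-helix genes, with Hes and Id genes, led 10 regions with a median of 8.48 kb and 163 tags per kb. Bhlhe40 encodes a repressor tied to growth signals and the circadian clock. Bhlhe40 (chr6:108657911-108668333) lay under 10.4 kb with 1576 tags, 151 tags per kb (95% interval 144 to 159) and a top fold of 57.1. Npas3 is a neural PAS-domain factor. The Npas3 region (chr12:53246031-53256095) spanned 10.1 kb and held 1799 tags, or 179 tags per kb (95% interval 171 to 187), with a fold of 53.5 at its strongest peak. Olig2, which marks transit-amplifying and oligodendrocyte progenitors, lay under 9.97 kb with 207 tags per kb. Myc, a driver of growth, was the second densest of all broad regions. At Myc (chr15:61983283-61989752), 1527 tags lay over 6.47 kb, or 236 tags per kb (95% interval 224 to 248), and the strongest peak had a fold of 41.4. Genes of the Hes family were Hes1, a Notch effector that represses neuronal genes, and Hes7, at 175 and 184 tags per kb. The listed start of Hes7 lay outside the region, with the summit 1952 bp from that start. The Hes7 region also holds ends of 4 tRNA genes. Id proteins bind E proteins and block their action on DNA. Their genes were Id2, Id1 and Id3, at 146, 129.6 and 129 tags per kb, and the E protein gene Tcf4 had 139.7 tags per kb over 8.88 kb.

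Zinc finger factors led 25 regions with a median of 164 tags per kb, and 18 of them lay above the median of all broad regions. Zeb2 is a repressor at the switch between progenitors, neurons and glia. Zeb2 (chr2:45102826-45118072) lay under 15.2 kb with 2010 tags, 132 tags per kb (95% interval 126 to 138) and a top fold of 38.5. Sall3 is a spalt-type factor of development. The Sall3 region (chr18:80977432-80988779) spanned 11.3 kb and held 1541 tags, or 136 tags per kb (95% interval 129 to 143), with a fold of 47.7 at its strongest peak. A relative of Sall3 and the other Zeb gene were Sall1 and Zeb1, at 135 and 199 tags per kb. Krüppel-like factors, many of them induced by growth factors or hormones, were Klf9, Klf6, Klf10 and Klf7, from 134 tags per kb at Klf9 to 182 at Klf7, and the immediate early factor Egr1 had 161 tags per kb. BTB-domain repressors were Bcl6, Zbtb7b, Zbtb7a, Hic1, Patz1, Zbtb1 and Zbtb18, from 119.5 tags per kb at Hic1 to 207 at Zbtb7b. Cxxc5, whose CXXC finger binds unmethylated CpG, had 106 tags per kb over 5 peaks. The remaining zinc finger genes were Zfp516, Zfp608, Zfp521, Zfp462, Ikzf2, Trps1, Yy1 and Hivep1, from 160.3 tags per kb at Ikzf2 to 205 at Yy1.

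Factors with bZIP, ETS, forkhead, SMAD and other DNA-binding domains led 19 regions with a median of 159 tags per kb. Etv1 and Etv5 are ETS factors that FGF and EGF signals induce through the MAP kinase ERK. At Etv1 (chr12:38777738-38788882), 1580 tags lay over 11.1 kb, or 142 tags per kb (95% interval 135 to 149), and the strongest peak had a fold of 43.3. Further ETS genes, the latter for a repressor, were Etv5 and Erf, at 129.6 and 187 tags per kb. Nfe2l1 senses proteasome activity. Nfe2l1 (chr11:96821890-96831105) lay under 9.22 kb with 895 tags, 97.1 tags per kb (95% interval 90.9 to 104) and a top fold of 44.8. Its relative Nfe2l2, the regulator of the antioxidant response, had 178 tags per kb. AP-1 genes, which growth factors induce within minutes, were Fosl2, Jun and Junb, at 152, 208 and 169 tags per kb. Other bZIP genes were Nfil3 and Ddit3, at 147 and 193 tags per kb, a clock-linked repressor and a stress-response factor. TGF-beta signalling was represented by Smad3 and Smad7, at 169.7 and 159 tags per kb, an effector and an inhibitor of the pathway. Further DNA-binding proteins were Purb, Ybx3, Rfx4, Arid5b, Foxo3, Mybl1 and Banp, from 85.8 tags per kb at Ybx3 to 206 at Foxo3.

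Transcriptional cofactors led 18 regions with a median of 6.90 kb and 147 tags per kb. Irf2bp2 encodes a corepressor. The Irf2bp2 region (chr8:126586298-126596419) spanned 10.1 kb and held 1379 tags, or 136 tags per kb (95% interval 129 to 144), with a fold of 39.8 at its strongest peak. Lbh encodes a small transcriptional cofactor. At Lbh (chr17:72917095-72927104), 972 tags lay over 10.01 kb, or 97.1 tags per kb (95% interval 91.1 to 103), and the strongest peak had a fold of 43.9. Bcl3, an IκB-family coactivator of NF-κB, had 78.1 tags per kb over 4 peaks and 10.002 kb, the lowest density of this class. Corepressors and their recruiters were Spen, Sin3a, Tle3, Nab2, Irf2bpl and Phf12, from 129 tags per kb at Spen to 217 at Phf12. Coactivators of Notch, Wnt and Hippo signals were Maml2, Bcl9l and Wwtr1, at 156, 124 and 172 tags per kb. The LIM-only adaptor and its partner gene were Lmo4 and Ssbp4, at 163 and 128 tags per kb. A clock repressor, an immediate early gene, a PIAS-like coregulator and a Ski-domain gene were Per1, Ier2, Zmiz1 and Skida1, from 113 tags per kb at Skida1 to 219 at Zmiz1.

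Chromatin proteins led 28 regions with a median of 7.28 kb, and 9 of these reached 8 kb. Their median of 170 tags per kb was above that of all broad regions. Bahcc1 and Tnrc18 encode related proteins with a BAH domain, which reads modified histones. Bahcc1 (chr11:120228582-120243925) lay under 15.3 kb with 2202 tags, 144 tags per kb (95% interval 138 to 149.6) and a top fold of 54.0. The Tnrc18 region (chr5:142813226-142824132) spanned 10.9 kb and held 2507 tags, or 229.9 tags per kb (95% interval 221 to 239), with a fold of 36.3 at its strongest peak. Kdm6b removes methyl groups from lysine 27 of histone H3, a mark of Polycomb repression. At Kdm6b (chr11:69407983-69420886), 1949 tags lay over 12.9 kb, or 151 tags per kb (95% interval 144 to 158), and the strongest peak had a fold of 50.3. Setd1b trimethylates the residue studied here, Ing1 binds the trimethylated form, and Kmt2e and Setd5 are SET-domain relatives. Together they were Setd1b, Kmt2e, Setd5 and Ing1, from 149 tags per kb at Setd5 to 207 at Ing1. Polycomb genes and the CpG-binding demethylase that recruits a Polycomb complex were Pcgf2, Jarid2 and Kdm2b, at 171, 193 and 187 tags per kb. BAF and CHD remodellers, which move nucleosomes, were Arid1a, Arid2, Dpf1, Chd2 and Chd3, from 106 tags per kb at Dpf1 to 186 at Arid2. Readers of modified histones and subunits of chromatin complexes were Brd2, Baz2a, Cbx3, Phf21a, Phf21b, Mllt10 and Msl2, from 117 tags per kb at Mllt10 to 199 at Brd2. High-mobility-group genes, of which Hmga2 sustains self-renewal of neural stem cells, were Hmga2 and Hmga1, at 214 and 135 tags per kb. Histone chaperones and related proteins were Anp32a, Set, Spty2d1 and Hdgf, from 105 tags per kb at Spty2d1 to 209 at Anp32a.

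Histone genes themselves led 4 regions, all below the median of the broad set. Clustered histone genes are short and crowded, and a single region can run across several of them. H4c8 (chr13:23529718-23537781) lay under 8.06 kb with 969 tags, 120.2 tags per kb (95% interval 113 to 128) and a top fold of 31.3. It also holds ends of H2ac10 and H3c8. The H2bc8 region (chr13:23570133-23577491) spanned 7.36 kb and held 649 tags, or 88.2 tags per kb (95% interval 81.5 to 95.2), with a fold of 26.0 at its strongest peak. It joins 5 peaks and the ends of 5 histone genes. The genes for a linker histone and for the variant H2A.Z were H1f5 and H2az1, at 103 and 132 tags per kb.

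Feedback inhibitors of growth factor signalling, with tribbles and related genes, led 13 regions. This class had the highest median, 185 tags per kb, with 9 of 13 above the median of all broad regions. That rank depends on which genes were put in the class by hand. Trib1 (185 tags per kb), Trib2 (213) and Phlda1 (246) lay at or above the class median, which was not worked out without them. EGF and bFGF signal through receptor tyrosine kinases and ERK, and Sprouty, Spred and Dusp genes are induced by that signal and damp it. Dusp4 and Dusp6 encode phosphatases of MAP kinases. At Dusp4 (chr8:34804390-34816575), 1704 tags lay over 12.2 kb, or 139.8 tags per kb (95% interval 133 to 147), and the strongest peak had a fold of 42.6. Dusp6 (chr10:99260524-99269212) lay under 8.69 kb with 1961 tags, 226 tags per kb (95% interval 216 to 236) and a top fold of 52.8. The other phosphatase genes were Dusp1 and Dusp7, at 109.8 and 186 tags per kb. The Spry4 region (chr18:38592142-38603445) spanned 11.3 kb and held 2106 tags, or 186 tags per kb (95% interval 178 to 194), with a fold of 52.8 at its strongest peak. The other Sprouty genes and Spred1, which block the pathway upstream of Raf, were Spry2, Spry1 and Spred1, at 123, 186 and 157 tags per kb. Phlda1, a pleckstrin-homology gene induced by the same signals, was the densest broad region. At Phlda1 (chr10:111505567-111510897), 1312 tags lay over 5.33 kb, or 246 tags per kb (95% interval 233 to 259.8), and the strongest peak had a fold of 50.6. Lrig proteins lower receptor levels and tribbles are pseudokinases that steer protein degradation; their genes were Lrig1, Lrig3, Trib1 and Trib2, from 146 tags per kb at Lrig1 to 213 at Trib2.

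Other signalling genes formed the largest class, 44 regions with a median of 5.89 kb and 158 tags per kb. Inka2 encodes an inhibitor of the kinase PAK4. Inka2 (chr3:105703458-105714855) lay under 11.4 kb with 1218 tags, 107 tags per kb (95% interval 101 to 113) and a top fold of 55.0. Irs2 is the adaptor through which insulin and IGF receptors act. The Irs2 region (chr8:10999571-11010434) spanned 10.9 kb and held 2273 tags, or 209 tags per kb (95% interval 201 to 218), with a fold of 55.7 at its strongest peak. Adgrl3, an adhesion receptor of the latrophilin type, was the fourth in density. At Adgrl3 (chr5:81019116-81025320), 1418 tags lay over 6.21 kb, or 229 tags per kb (95% interval 217 to 241), and the strongest peak had a fold of 46.2. Its relative Adgrl2 had 198 tags per kb with its listed start outside the region. Secreted factors, among them the angiogenic factor Vegfa and the neurotrophin Bdnf, were Wnt7b, Vegfa, Bdnf, Kitl, Nrg2, Metrn, Nrn1, Igfbp5 and Tafa2, from 132 tags per kb at Bdnf to 219 at Vegfa. Receptors at the cell surface were Hrh1, Lrp1, Ddr1, Adrb1, Tnfrsf1a, Notch1, Bmpr2, P2ry1, Igf1r, Fzd7, S1pr2, Crim1 and F3, from 101 tags per kb at Tnfrsf1a to 205 at Igf1r. The Hrh1 region, 10.1 kb, is the third of this class to reach 10 kb, and Lfng, which modifies the Notch receptor with sugar, had 177 tags per kb. Kinases and phosphatases were Sgk1, Gsk3b, Wnk1, Jak2, Phlpp1, Map2k3, Map3k11, Tnik and Dyrk3, from 107 tags per kb at Map2k3 to 200.4 at Tnik. Adaptors and regulators were Shc1, Shc3, Erbin, Appl2, Calm2, Rgs16 and Trim8, from 107 tags per kb at Appl2 to 190.5 at Rgs16.

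Cell cycle genes and their neighbours led 21 regions with a median of 146 tags per kb. The 3 that passed 10 kb are regulators of the G1 phase. Cdkn1b (chr6:134919178-134933568) lay under 14.4 kb with 2005 tags, 139 tags per kb (95% interval 133 to 146) and a top fold of 52.8. Cdkn1b encodes p27, an inhibitor of cyclin-dependent kinases that is high in quiescent progenitors. The Cdkn2c region (chr4:109656171-109668244) spanned 12.1 kb and held 1760 tags, or 146 tags per kb (95% interval 139 to 153), with a fold of 50.6 at its strongest peak. Ccnd1 encodes cyclin D1, which growth factors induce. At Ccnd1 (chr7:144932280-144943996), 2145 tags lay over 11.7 kb, or 183 tags per kb (95% interval 175 to 191), and the strongest peak had a fold of 49.7. Other cyclin-dependent kinases, inhibitors and partners were Cdk6, Cdk17, Cdkn1a, Cdkn2d, Cdk2ap1 and Cdk2ap2, from 104 tags per kb at Cdk17 to 153 at Cdk6. Apoptosis and growth arrest genes were Mcl1, Bbc3, Btg1, Gadd45g and Rassf3, from 135 tags per kb at Btg1 to 212 at Rassf3. Genes for mitosis, chromosome structure and repair were Smc4, Cep170, Haus3, Ska2, Pimreg and Ctc1, from 84.7 tags per kb at Haus3 to 203 at Smc4. At Ctc1 none of the region lies inside the leading gene, the summit is 24689 bp from its start, and the ends of 7 tRNA genes lie in the region.

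RNA-binding, RNA-processing and translation genes led 31 regions with a median of 5.71 kb and 161 tags per kb. Qk encodes Quaking, a splicing regulator of glial cells. Qk (chr17:10305308-10321757) lay under 16.4 kb with 2321 tags, 141 tags per kb (95% interval 135 to 147) and a top fold of 47.0. The Zc3h4 region (chr7:16398726-16406264) spanned 7.54 kb and held 1215 tags, or 161 tags per kb (95% interval 152 to 170.5), with a fold of 44.1 at its strongest peak. Zc3h4 restrains noncoding transcription. At Zfc3h1 (chr10:115381627-115388767), 1609 tags lay over 7.14 kb, or 225 tags per kb (95% interval 214 to 237), and the strongest peak had a fold of 35.7. Zfc3h1 is an adaptor of the nuclear exosome, which degrades RNA. The tristetraprolin family, which destabilises AU-rich messages of immediate early genes, was Zfp36, Zfp36l1 and Zfp36l2, at 91.3, 195 and 156 tags per kb. Heterogeneous nuclear ribonucleoproteins, which package and splice transcripts, were Hnrnpul2, Hnrnph1, Hnrnph3, Hnrnpu, Hnrnpdl and Pcbp1, from 146 tags per kb at Hnrnph3 to 209 at Pcbp1. Splicing regulators of neural cells were Nova1 and Ptbp1, at 139 and 166 tags per kb. Other RNA-binding proteins, with the clock-linked gene Noct, were Cpeb4, Rbm15, Cirbp, Ddx5, Mex3c, Scaf1, Fubp1 and Noct, from 97.6 tags per kb at Cirbp to 196 at Ddx5. RNA editing and modification genes were Apobec1, Alkbh5, Mettl15 and Gtpbp3, from 99.4 tags per kb at Apobec1 to 171 at Alkbh5. Translation and ribosome genes were Eef2, Rpl18, Rrs1 and Ppp1r15b, from 102 tags per kb at Eef2 to 167 at Ppp1r15b.

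Cytoskeletal genes and regulators of small GTPases led 30 regions with a median of 6.01 kb and 151 tags per kb. Srgap2 encodes a GTPase-activating protein that shapes migrating neurons. Srgap2 (chr1:131520960-131530678) lay under 9.72 kb with 1752 tags, 180.3 tags per kb (95% interval 172 to 189) and a top fold of 52.8. Cttnbp2nl binds cortactin. The Cttnbp2nl region (chr3:105047638-105055637) spanned 8 kb and held 900 tags, or 112 tags per kb (95% interval 105 to 120.1), with a fold of 60.03 at its strongest peak. Nes and Vim encode nestin and vimentin, the intermediate filaments of neural progenitors, and their regions had 168 and 172 tags per kb. The tubulin gene Tubb5 had a fold of 70.9, the highest of all broad regions, and Tubb2b a fold of 65.1. Their tags per kb were 154 and 116. Motor genes were Myh9, Myo1c, Kif3c and Kif5b, from 106 tags per kb at Myo1c to 151 at Myh9. Actin regulators were Marcks, Cfl1, Fscn1, Arpc5l, Add3, Ppp1r9b, Ppp1r18 and Mtss2, from 142 tags per kb at Mtss2 to 200 at Marcks. Small GTPases and their regulators were Rhoq, Vav3, Bcr, Cdc42se1, Rab3gap2, Rab31, Rap2b, Arl4c, Git1 and Acap3, from 92.0 tags per kb at Bcr to 211 at Vav3. The microtubule-severing gene Fign had 127 tags per kb and the filament-related Iffo1 had 120.

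Adhesion, matrix and guidance genes led 22 regions with a median of 145 tags per kb, and these lie at the longest genes, with a median gene length of 121 kb. Pcdh7 is a protocadherin. At Pcdh7 (chr5:57713839-57724498), 1658 tags lay over 10.7 kb, or 156 tags per kb (95% interval 148 to 163), and the strongest peak had a fold of 35.2. Agrin is a heparan sulfate proteoglycan of basement membranes. Agrn (chr4:156195753-156204709) lay under 8.96 kb with 945 tags, 106 tags per kb (95% interval 98.9 to 112) and a top fold of 42.7. Other cadherins and protocadherins, with the catenin Ctnnd2 that binds them, were Pcdh10, Pcdhgc3, Cdh20 and Ctnnd2, from 121 tags per kb at Pcdh10 to 199 at Ctnnd2. Immunoglobulin-type adhesion genes were Alcam, Ncam2 and Mdga2, at 194, 107 and 191 tags per kb. The synaptic adhesion gene Lrrtm3 was among the 5 regions with the fewest tags per kb. The Lrrtm3 region (chr10:64084530-64090765) spanned 6.24 kb and held 473 tags, or 75.8 tags per kb (95% interval 69.2 to 83.0), with a fold of 23.1 at its strongest peak. Integrin, syndecan, tetraspanin and matrix protease genes were Itgav, Sdc4, Cd9 and Adamts6, from 110.4 tags per kb at Itgav to 153 at Cd9. Guidance genes, with the pentraxin gene Nptx1, were Ntn1, Sema6a, Nrp2, Flrt2 and Nptx1, from 122 tags per kb at Nrp2 to 194 at Sema6a. Enzymes that build glycan chains were Ext1, Chst2 and St3gal6, at 171, 146 and 125 tags per kb.

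Metabolic, mitochondrial and transport genes led 36 regions with a median of 5.69 kb and 147 tags per kb, and none reached 10 kb. Scd2 makes monounsaturated fatty acids in brain. At Scd2 (chr19:44292950-44302131), 1632 tags lay over 9.18 kb, or 178 tags per kb (95% interval 169 to 187), and the strongest peak had a fold of 46.9. Ero1a oxidises proteins in the endoplasmic reticulum. Ero1a (chr14:45311515-45319845) lay under 8.33 kb with 993 tags, 119 tags per kb (95% interval 112 to 127) and a top fold of 46.2. Glycolytic enzymes were Eno1, Pkm, Gpi1 and Gapdh, from 164 tags per kb at Pkm to 183 at Gapdh, and an oxygen sensor and a hypoxia-induced gene were Egln1 and Fam162a, at 165 and 156 tags per kb. Lipid metabolism genes were Fabp7, Hmgcs1, Elovl6, Dbi, Chka and Slc27a1, from 123 tags per kb at Chka to 165 at Dbi; Fabp7 is a fatty acid-binding protein of radial glia. Mitochondrial genes were Ndufaf3, Atp5d, Vdac1, Slc25a25 and Slc25a29, from 95.9 tags per kb at Slc25a29 to 154 at Slc25a25. A lipid flippase and solute transporters were Atp8b2, Slc5a3 and Slc1a3, at 139, 176 and 145 tags per kb; Slc1a3 is the glutamate transporter GLAST of radial glia and astrocytes. Amino acid and polyamine enzymes were Odc1, Il4i1b and Mtap, at 138, 151 and 121 tags per kb. Redox and other enzymes were Txndc12, Oxr1, Vat1, Car2, Cp and Nudt4, from 96.0 tags per kb at Car2 to 200.5 at Oxr1. At the low end lay Oat, for ornithine aminotransferase, and Gstm1, for a glutathione transferase. The Oat region (chr7:132571997-132577043) spanned 5.05 kb and held 375 tags, or 74.3 tags per kb (95% interval 67.0 to 82.2), with a fold of 49.9 at its strongest peak. At Gstm1 (chr3:108013332-108018779), 357 tags lay over 5.45 kb, or 65.5 tags per kb (95% interval 58.9 to 72.7), and the strongest peak had a fold of 24.1.

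Ubiquitin, chaperone and membrane traffic genes led 20 regions with a median of 135 tags per kb, the lowest of the classes apart from histone genes. Trim9 is a neuronal ubiquitin ligase. Trim9 (chr12:70338469-70351303) lay under 12.8 kb with 1977 tags, 154 tags per kb (95% interval 147 to 161) and a top fold of 50.3. The polyubiquitin gene Ubb had 129.98 tags per kb over 5.57 kb. Ubiquitin ligases, conjugating enzymes and deubiquitinases, with the zinc finger gene Zfand5, were Rnf213, Klhl9, Fbxl14, Znrf1, Ube2h, Ube2e3, Josd1, Vcpip1 and Zfand5, from 118 tags per kb at Josd1 to 190.3 at Zfand5. Traffic genes and the cochaperone Dnajc14 were Borcs6, Vmp1, Epn2, Snx33, Cavin2, Plekha3, Reep3 and Dnajc14, from 115 tags per kb at Plekha3 to 215 at Dnajc14.

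The last 25 regions led with genes outside these classes or with no known role, at a median of 145 tags per kb. The Frmd8 region (chr19:5836123-5852250) spanned 16.1 kb and held 2080 tags, or 129 tags per kb (95% interval 123 to 135), with a fold of 48.8 at its strongest peak. An end of Neat1, the noncoding RNA that builds paraspeckles, lies inside this region. The region covers 5.26% of Frmd8 at the far end of that gene, with its summit 30352 bp from the Frmd8 start. At Zadh2 (chr18:84083013-84093041), 1576 tags lay over 10.03 kb, or 157 tags per kb (95% interval 149 to 165), and the strongest peak had a fold of 44.1. The Zadh2 region also holds an end of Tshz1, a teashirt zinc finger gene. Named genes without a class were Tsc22d2, Fam181b, Nol4, Brinp3, Ier5l, Zcchc2, Ptms, Megf9, Dexi, Zswim6, Ubald2, Tmem176a, Pxdc1, Lratd2 and Soga3, from 105 tags per kb at Ubald2 to 194 at Zswim6. Predicted or uncharacterised genes were Gm46294, 4930524J08Rik, LOC102634078, Gm9949, Gm35364 and BC005537, from 93.3 tags per kb at Gm46294 to 192 at Gm35364; of these regions, that of 4930524J08Rik also holds an end of Hnrnpd and that of Gm35364 an end of Ctbp2. The regions with the fewest and the third fewest tags per kb are in this class. 1600014C23Rik (chr17:45732490-45737514) lay under 5.03 kb with 284 tags, 56.5 tags per kb (95% interval 50.1 to 63.5) and a top fold of 16.6. The Naa80 region (chr9:107576651-107581682) spanned 5.03 kb and held 370 tags, or 73.5 tags per kb (95% interval 66.2 to 81.4), with a fold of 30.3 at its strongest peak.

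Gene families and pathways, taken from lists set by hand or by gene symbol, show which relatives had short regions. Some lists hold only part of a family: the feedback list has Lrig1 and Lrig3 but not Lrig2. Counts are over the listed genes. Over all 20665 coding genes on chromosomes 1 to 19, 459 (2.22%) had an end at a broad region, and over the 11941 with any joined region at an end the share was 3.84%. Since the rule chose on length, the counts below are read only as a description beside these shares. The list of Sprouty, Spred, Dusp, Lrig and related feedback genes had 10 of 22 at a broad region and 21 with any region. Spred2, which had no broad region, had 224 tags per kb over 3.87 kb. Receptors that these proteins damp had shorter regions. Of 23 listed EGF and FGF receptors and ligands, with only some of the FGF ligands in the list, only Nrg2 was at a broad region. Egfr had 3.79 kb at 185 tags per kb and Fgfr1 3.94 kb at 222 tags per kb.

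Sox genes had 6 of 18 at a broad region, with Sox1, an early neural gene, at 2.94 kb and 38.5 tags per kb. POU genes had 3 of 14, all of class III. The Hes, Hey, Id and E protein list had 6 of 16; Hes5, the other Notch effector of progenitors, had 1.77 kb at 96.7 tags per kb and Id4 had 1.11 kb at 44.1. Immediate early genes had 8 of 25, and each of the 25 had some region, with Fos at 4.39 kb and 173 tags per kb. Sine oculis-type and TALE homeobox genes had 5 of 24, and cyclins with their inhibitors and E2F genes had 6 of 31, where Ccnd2 lay just short at 4.80 kb and 183 tags per kb. Several families of development had none: 0 of 12 LIM homeobox genes, 0 of 41 other forebrain and neural homeobox genes, 0 of 15 hedgehog pathway genes, 0 of 10 Gli, Glis and Zic genes and 0 of 19 T-box and Gata genes. Their regions were not all weak, since Prox1 had 4.17 kb at 182 tags per kb and Cux1 3.95 kb at 199. Nor were they all short away from coding gene ends, which the rule leaves out. There, 8223 bp at 152 tags per kb lay over Nkx2-2 and 6710 bp at 208 over Ptch1. Beside a share of 2.22% over all coding genes, 0 in lists this short is not read as a trait of the family. No Pax gene of 9 had a region at an end, but the rule misses starts inside a gene, and a region of 3352 bp with 487 tags lies within Pax6.

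Housekeeping families were counted in the same way. Cytosolic ribosomal protein genes had 2 of 79 at a broad region, Rpl18 and Rpl35, with a median length of 2.47 kb but 179 tags per kb among the 76 with a region. Oxidative phosphorylation genes had 4 of 93, at a median of 2.35 kb and 168 tags per kb. Glycolysis genes had 4 of 19, at a median of 3.09 kb and 164 tags per kb. Over all 11941 coding genes with a region, the median was 2.25 kb and 152 tags per kb. In the median, ribosomal and mitochondrial genes had more tags per kb than the broad set and shorter regions. None of the 1104 olfactory receptor genes had a region.

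The 38 lists include further families with between 1 and 6 members at a broad region. Among signalling pathways, the Notch list had 4 of 22, BMP and TGF-beta 4 of 38 and Wnt 3 of 46. Among regulators of chromatin, H3K4 methyltransferases, demethylases and Polycomb genes had 5 of 44 and CHD and BAF remodellers 5 of 35. Among transcription factors, nuclear receptors had 6 of 47, Klf and Sp factors 4 of 25, ETS factors 3 of 24, Zeb, Snail and Twist repressors 2 of 9, proneural and Olig factors 2 of 19, Hox genes 2 of 39, nuclear factor I genes 1 of 4, the Myc network 1 of 12, Tcf, Lef and Tead factors 1 of 10 (the coactivator Wwtr1) and forkhead factors 1 of 35. Among structural genes, adhesion and matrix genes had 4 of 34, guidance genes 3 of 62, neural RNA-binding proteins 3 of 34 and tubulins and actins 2 of 20. Actb was just under the bound at 4.90 kb and 130 tags per kb.

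**Figure D3:**
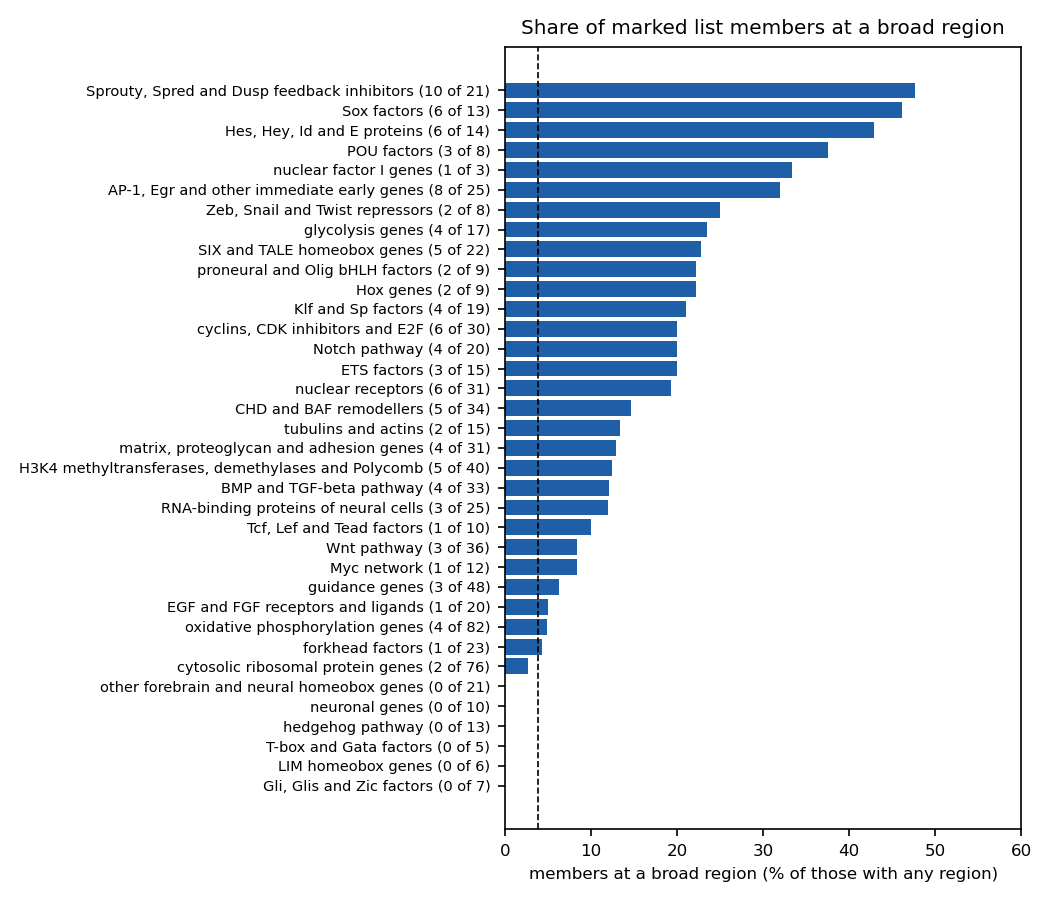
Percent of each list's members with any joined region at an end that have a broad one, for the lists with 3 or more such members; numbers in parentheses give broad members of marked members and the dashed line is the share over all marked coding genes, 3.84%. Sprouty, Spred, Dusp, Lrig and related feedback genes (10 of 21), Sox factors (6 of 13) and Hes, Hey, Id and E proteins (6 of 14) stand at the top, and 6 lists have none.

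Marker genes were checked against the label of the cells. Of 10 neural progenitor markers, 8 had a region at an end and 6 of these were broad: Sox2, Nes, Vim, Fabp7, Hes1 and Slc1a3. Those without one at an end, Pax6 and Msi1, had regions further inside the gene. No marker of neurons, astrocytes, oligodendrocytes, microglia or endothelium was at a broad region, though the lists are shorter, with 4 or 5 genes each on chromosomes 1 to 19. With 2.22% of all coding genes at a broad region, 0 in lists this short says little. Of these, 2 of 4 neuronal, 1 of 5 astrocyte, 1 of 4 oligodendrocyte, 1 of 5 microglial and 1 of 5 endothelial markers had a region. The tags summed over each list were 7567 for the 10 progenitor genes, 278 for neurons, 339 for astrocytes, 35 for oligodendrocytes, 33 for microglia and 93 for endothelium. These lists differ in size, and the progenitor sum includes the broad regions, which the rule chose by length. Of a longer neuronal list of 17 genes, 10 had a region and 0 a broad one. Of the 19 markers of all 6 cell types with no region at an end, 15 had none anywhere in the gene, among them Gfap, Sox10, Aif1, Cdh5 and Rbfox3. Besides Pax6 and Msi1, the endothelial genes Pecam1 and Tek had 1 short region each inside the gene. These measured 678 bp with 24 tags and 733 bp with 28 tags. H3K4me3 also lies at genes held ready for activation, so a marked gene is not shown to be expressed. These values do not go against the label of the cells.

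Broad regions reached into the gene more than away from it. A start of the leading gene is listed for 280 of the 369 regions. It lay inside the region in 274 of these. In these, the region ran a median of 1726 bp upstream and 4403 bp downstream of the start, beside 795 and 1299 bp in the shorter regions. The downstream arm was the longer one in 219 of 274 regions (79.9%), a share close to the 81.9% of shorter regions. The summit lay a median of 359 bp downstream of the start, beside 210 bp. Both arms were longer than in shorter regions, which follows from the choice by length. The side of the longer arm was shared out in much the same way as in shorter regions.

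**Figure D4:**
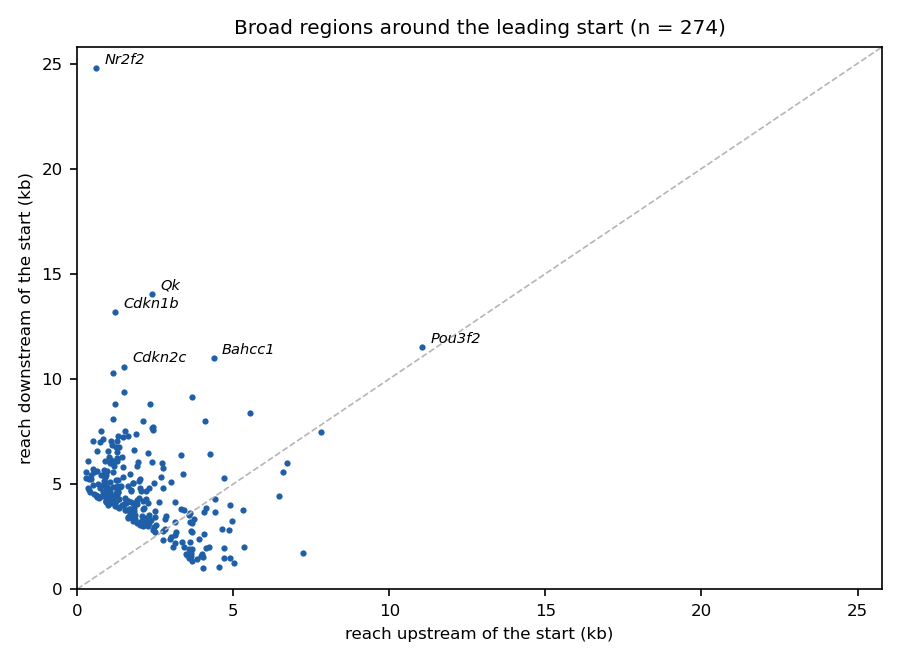
Reach of 274 broad regions upstream (x axis, kb) and downstream (y axis, kb) of the annotated start of the leading gene; each point is a region and the dashed line marks equal reach. Most points, 219 of 274, lie above the line; Nr2f2, Qk and Cdkn1b reach farthest downstream and Pou3f2 is close to even.

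A downstream arm of several kb covers short genes whole. The leading gene lay within its region from end to end in 50 of 369 regions (13.6%), beside 1.15% of shorter regions, a difference that the choice by length favours. Among them were Nr2f2, Pou3f2, Pou3f3, Sox2, Cdkn1b, Cdkn2c, Bhlhe40, Olig2, Id1, Id2, Id3, Hes1, Dusp1, Dusp6, Spry2, Jun, Junb, Egr1 and Ier2. At long genes the region stayed near the start: Zeb2 was covered to 10.9%, Nfib to 5.88% and Qk to 12.4%. The upstream arm was the longer one in 55 regions. Zeb2 reached 7795 bp upstream, over the end of Zeb2os, Agrn 7221 bp, Six3 6714 bp, over the end of Six3os1, Nr2f1 6602 bp and Tnrc18 6470 bp.

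**Figure D5:**
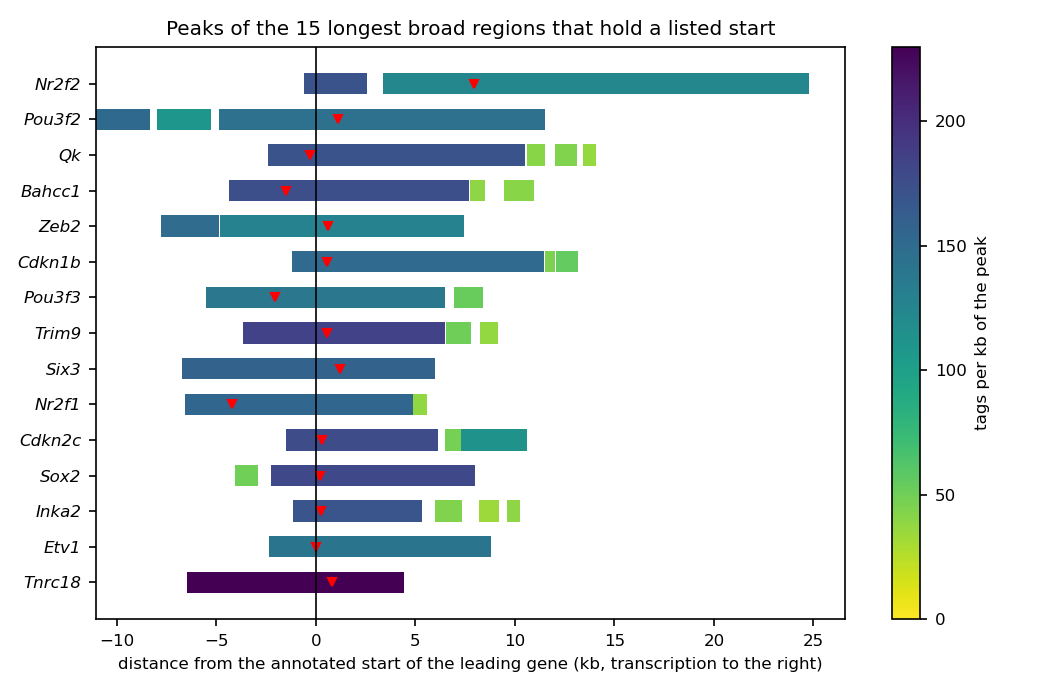
Peaks of the 15 longest broad regions with a listed start inside, as bars by distance in kb from the start of the leading gene, with transcription to the right; colour gives tags per kb of each peak and red triangles the summit of the peak with most tags. Nr2f2 extends 24785 bp downstream, Pou3f2 lies on both sides, and at Qk, Bahcc1 and Inka2 the outer peaks are short and hold fewer tags per kb than the main one.

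Coding neighbours, noncoding RNAs and tRNAs shared some regions. Of the 369 regions, 289 touched an end of 1 coding gene, 71 of 2 and 9 of 3 or more. Starts on both strands lay inside 35 of the 274 regions with a listed start inside (12.8%), beside 10.4% of shorter regions. These shares were not matched for length, and a longer region can hold more starts by length alone. Examples are Hnrnpa2b1 with Cbx3, Mbd6 with Ddit3, and Zbtb25 with Zbtb1. An end of a long noncoding RNA lay inside 101 regions, among them Six3os1, Zeb2os, Pantr1 at Pou3f3 and Lockd at Cdkn1b. Ends of noncoding RNAs were not counted in shorter regions, and a longer region can hold more ends by length alone. For 6 leading genes the listed start was outside the region, and in 5 of these another annotated gene end was inside: Neat1 at Frmd8, Gt(ROSA)26Sor at Setd5, Mir21a at Vmp1, and tRNA genes at Ctc1 and Hes7. The sixth was Adgrl2.

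Hairpins of microRNAs ended inside 8 broad regions, a count likewise not made for shorter regions. Mature sequences from RefSeq (GRCm38.p6) are shown for the better-known ones, with the seed, bases 2 to 8, in capitals, since the seed pairs with target messages and tells which of these microRNAs could share targets.
mmu-miR-21a-5p: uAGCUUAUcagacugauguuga
mmu-miR-132-3p: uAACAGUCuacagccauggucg
mmu-miR-212-3p: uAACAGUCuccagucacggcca
mmu-miR-191-5p: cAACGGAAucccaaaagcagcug
mmu-miR-425-5p: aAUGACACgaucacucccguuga
The first lies at Vmp1 (177 tags per kb). miR-132 and miR-212 have the same seed and lie together in the Hic1 region (119.5 tags per kb, 6.21 kb), and miR-191 and miR-425 lie together at Ndufaf3 (149 tags per kb) with different seeds. The other hairpins were Mir1931 at Cdk17, Mir345 at Slc25a29, Mir1932 at Rnf213, Mir7655 at Mllt10 and Mir1907 at Trps1. In neurons miR-132 and miR-212 are known to be induced by activity, and miR-21a is widely expressed in dividing cells.

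Windows of 300 bases around the leading starts (250 before to 50 after) were rich in CpG. In the 274 broad regions the median was 65.7% GC and 8.33 CpG per 100 bases, beside 62.7% and 7.67 at the 7643 starts in shorter regions and 56.7% and 4.67 over the first listed start of all 16457 coding genes in the table. Genes with no region had 48.3% and 1.00. The GC box GGGCGG, read on both strands as are all motifs here, was in 75.2% of broad starts, 71.9% of shorter ones and 47.3% of all. The ETS motif CCGGAA was in 20.1%, 29.5% and 19.5%, and the CCAAT box CCAAT in 40.5%, 38.1% and 39.0%. The nuclear factor I site TTGGCA was in 10.9%, 10.1% and 13.4%, and the E-box CACGTG in 8.39%, 10.5% and 7.96%. The Sox motif AACAAT was in 4.74%, 4.71% and 9.16%, the CRE TGACGTCA in 3.65%, 3.52% and 2.42%, and the AP-1 site TGACTCA in 1.09%, 2.81% and 4.61%. The letters CG are part of the GC box, ETS, CRE and E-box motifs, and a CCAAT box read on the other strand can share bases with a nuclear factor I site. A match is a string in a window, not a bound site.

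The TATA box TATAAA, which sets the start at many inducible and tissue-specific genes, was in 11.7% of broad starts, 5.74% of shorter ones and 13.5% of all. On the strand of the gene and 20 to 40 bases before the start, where a TATA box acts, it was in 13 of 274 broad starts (4.74%), 73 of 7643 shorter ones (0.955%) and 479 of all 16457 (2.91%). The 30 bases around each of these are shown with the motif in capitals, to place the motif at named genes.
Lbh, chr17:72918264-72918293, plus strand: ccgcccctccctTATAAAtgctgcttcccg
Btg1, chr10:96616963-96616992, plus strand: tttccgcagcccTATAAAatgagctgcacg
Zfp36l1, chr12:80113025-80113054, minus strand: cccaccaaatctTATAAAttgggctttgcg
Vim, chr2:13574267-13574296, plus strand: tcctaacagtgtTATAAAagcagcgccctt
H1f5, chr13:21780636-21780665, minus strand: agcaccggcttaTATAAAccaggagcctga
Cp, chr3:19957212-19957241, plus strand: tgaagccctattTATAAAattgcttgcttc
Gstm1, chr3:108017831-108017860, minus strand: tctagtagtctgTATAAAgtcacaactcca
Kitl, chr10:100015784-100015813, plus strand: gggagggagctgTATAAAaagcgctggcgg
Ddx5, chr11:106788507-106788536, minus strand: ggcggtccagacTATAAAagcggctgccgg
Pxdc1, chr13:34652692-34652721, minus strand: tgggaagtgcctTATAAAgccgcagcccgt
Jarid2, chr13:44731228-44731257, plus strand: agccctaacttgTATAAAagcagagtccat
Gadd45g, chr13:51846636-51846665, plus strand: gccgagcctgtcTATAAAagggctctcccg
Fscn1, chr5:142960312-142960341, plus strand: acgtcatcctccTATAAAaccctgggcgcc
The 13 genes include the filament gene Vim, the growth arrest genes Btg1 and Gadd45g, the message-decay gene Zfp36l1, the stem cell factor gene Kitl, the actin-bundling gene Fscn1, the helicase gene Ddx5, the Polycomb partner Jarid2 and the linker histone gene H1f5. Lbh, Cp, Gstm1 and Pxdc1 complete the set. The share was not compared by a test, since the starts were grouped by the length of the region.

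The number of broad regions per coding gene differed between chromosomes. Per 100 coding genes, chromosome 18 had 3.52 broad regions, chromosome 10 had 3.40 and chromosome 3 had 3.15, while chromosome 14 had 0.47, with 4 regions. By share of the joined regions at coding ends these were 6.10%, 5.91%, 5.63% and 1.12%, beside 3.49% over chromosomes 1 to 19. These are the highest and lowest chromosomes, picked after the values were seen. Their counts are small, such as 18 regions on chromosome 18, and the spread was not tested. Another broad region lay within 100 kb for 36 of the 369. The closest pair was Skida1 and Mllt10, 1.06 kb apart and so just beyond the joining distance, and Iffo1 and Gapdh followed at 11.99 kb. On chromosome 11, Ctc1, Borcs6, Per1 and Hes7 lay in a row with gaps of 15.8, 29.6 and 19.96 kb.

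The joining distance sets the length of some leading regions. With peaks up to 3 kb apart joined, 46 of the 369 regions grew, 8 of them to at least 2 times their length. Qk went from 16.4 to 21.1 kb, Cdkn1b from 14.4 to 17.3 kb, Pou3f3 from 13.9 to 20.1 kb, Nr2f1 from 12.2 to 15.4 kb and Sox2 from 12.1 to 31.0 kb. Nr2f2, Nfib and Pou3f2 kept their length under that distance; at Nr2f2 the next region is 3.24 kb away. The nearest other joined region lay a median of 18.5 kb from a broad region.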

How the data were processed

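One H3K4me3 library and 1 input library of adult neural progenitor cells were sequenced, and the peak list of the former was analysed. Per the file headers, the authors called peaks with MACS 1.4.2 against the input (p cutoff 1e-05, no more than 1 tag kept at a position). The versions differ, as MACS2 2.1.0 and mm10 stand in the submitters' processing notes. Which aligner was used is not given in these sources. The deposited list gives each peak's position and summit in bp, its tag count (not normalized), a p-value score (−10 times its log10), an FDR in percent and, as a ratio, the fold over input. Keeping 1 tag per position limits counts in strong peaks, and sites under the cutoff are not listed.

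Peaks were joined, assigned to coding genes of a RefSeq table (GRCm38.p6, the assembly of mm10) and counted with Python 3.11.15, pandas 2.3.3 and scipy 1.17.1, by code tested on simulated peaks. Starts come from a RefSeq promoter table with entries for 280 of the 369 leading genes. Each region is named once, apart from a few that are not reported here. With the same exceptions, full values are given for the 10 longest, the 5 with most and the 5 with fewest tags per kb and the 2 longest of each class, and others that were singled out were chosen after their values were seen. The regions and the 38 gene lists were chosen with earlier results of these data known, and the classes after the regions were listed. With 1 library no test was made. The alternatives tried were other joining distances, windows, bounds and peak filters. No deposited per-sample column was left out.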

Additional observations from a re-analysis of the deposited data

Results flagged for a closer look

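The rule for coding gene ends on chromosomes 1 to 19 leaves out long regions elsewhere, and no control sample other than the input bears on them. On chromosomes 1 to 19, 95 regions of 5 kb or more touched no window at a coding gene end. The longest of these measured 27422 bp, more than the longest region at a coding gene end. On chromosome X, 12 regions of 5 kb or more lay at coding gene ends.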

How the results depend on the processing

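With 1 library no value has an error between cultures, and depth limits what is listed to sites with enough tags for the caller. No paired analysis was possible because the labels give 1 library of each kind and no replicate numbers. Of 61 values of 5 results under 13 alternatives, 33 stayed and 28 moved. To stay meant within 1.5 times for counts and within the counting interval for the tag share. For medians it meant within an interval from the ranks of the regions, which is not counting error. Joining up to 3 kb gave 714 regions at 1061 coding genes, a median of 6391.5 bp and 114 tags per kb, and 13.1% of the tags in peaks. A bound of 4000 bp gave 834 regions, 1069 genes, 4834 bp, 160 tags per kb and 15.2%, and a bound of 6000 bp 188 regions, 233 genes, 7314.5 bp and 4.97%. Without joining, the median was 171 tags per kb and the share 6.24%, and with a gap of 500 bp 163 and 7.30%. Peaks with a fold of at least 10 gave 162 tags per kb and 7.79%, and peaks with a −log10 p of at least 10 gave 7.94%. The share was 8.14% with a window of 500 bp, 8.48% with 2500 bp, 9.48% over the gene body, 7.06% at annotated starts only and 6.49% for regions at 1 coding gene, where 289 genes were left. Per kb of peak the median was 160 tags. All 459 genes stayed at a broad region with joining up to 3 kb, a window of 2500 bp, the gene body or a bound of 4000 bp, 311 stayed without joining and 332 at annotated starts only. Of 456 list counts, 375 stayed within 1.5 times and 81 moved.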

Other observations

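Long H3K4me3 regions away from coding gene ends were as long as those described above. Of the 95, the longest, 27422 bp with 159 tags per kb, lay over Mir9-2 and its host transcripts, and regions of 26000 bp (144 tags per kb) and 20626 bp (154 tags per kb) lay over Mir9-1 and Mir9-3, the other genes for miR-9, a microRNA of neural progenitors. A region of 24105 bp with 158 tags per kb on chromosome 15 lay over no gene of the table. Malat1, a nuclear noncoding RNA, had 11370 bp at 184 tags per kb. Others lay inside coding genes away from their outer ends, with 12444 bp at Tcf12, 10335 bp at Nfia, 8834 bp at Tcf4 and 9454 and 6834 bp at Nfix, so both Nfia and Nfix had a region of 5 kb or more that the rule for gene ends leaves out. A region of 13834 bp lay next to that of Nr2f2, over Gm29683, and one of 9101 bp lay beside Sox2 in Sox2ot. The median of the 95 was 133 tags per kb.

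On chromosome X the 12 broad regions had 57.6 to 116 tags per kb with a median of 95.4. The longest, 8485 bp, was at Rap2c, and the POU factor gene Pou3f4, a relative of Pou3f1, Pou3f2 and Pou3f3, had 6068 bp at 67.9 tags per kb. The glycolytic gene Pgk1 had 5769 bp at 104 tags per kb. The labels do not give the sex of the animals, so a single X copy and fewer tags per copy cannot be told apart.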
